A study of Mus musculus with 17 samples.

Results

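Livers of WT_star mice were compared with livers of WT mice. Both groups carry intact Khdc3 and differ in ancestry. WT mice have WT ancestors only, whereas WT_star mice have heterozygous parents and, one generation further back, both WT and Khdc3-null (KO) forebears. The series' text calls the WT_star mice females and states no sex for the WT mice. All were 8 weeks old, and the labels give liver as the tissue and hepatocyte as the cell type. The libraries were WT 25, 26, 27 and 28 and WT_star 20, 21, 33 and 34, named by the number in their titles, so that n = 4 in each group. The same table holds 3 KO mice of KO ancestry and 6 KO_star mice, which are Khdc3-null and bred as the WT_star mice were. Genes were kept when their deposited value, a read number divided by a size factor of the library, reached 10 in at least 3 of the 8 WT and WT_star libraries. This held for 15432 of the 27020 genes in the table (57.1%). Batf3, whose third-highest value was 10.133, lay just inside this limit, and Efnb3, at 9.8564, just outside. Of the genes kept, 41 had no WT_star library at 10 or more and 68 had no WT library there, so these passed through a single group.

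Khdc3 encodes a protein of the subcortical maternal complex, which oocytes build and which early embryos need after fertilization. The mother's egg therefore carries a product that the embryo's own genotype does not supply, and a grandparent's genotype can differ from that of the animal studied. The liver, examined here, makes most plasma proteins and bile acids, breaks down amino acids and foreign compounds, and runs many of these tasks under the control of hormones, of feeding and of a daily clock. It also holds resident immune cells, and its hepatocytes respond to interferons and to inflammatory cytokines.

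The 8 libraries held 17.7 to 26.7 M reads in genes, and the floor of 3 reads corresponded to deposited values of 2.46 to 3.53. Albumin took 9.11 to 10.2% of these reads in WT and 7.12 to 8.27% in WT_star. In a principal component analysis of the 8 libraries, the first component held 29% of the variance and set the WT libraries, at −16.3 to −32.4, apart from the WT_star libraries, at 15.4 to 32.9. The second held 25.2% and had WT_star 33 at its end, at −46.9. Khdc3 itself was near 0 in liver whatever the genotype, with 3 reads summed over the WT libraries and 4 over the WT_star libraries, against 7 in KO and 7 in KO_star, so its level checked no label. Litters, strain, batches and dates are not among the labels. The sources used here do not say whether the mice of 1 group were littermates. The p-values thus reflect only how far libraries spread within their groups, which may be technical in part. This spread was pooled over all 17 libraries of the fit, KO and KO_star included.

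Between WT_star and WT, 145 genes changed at an adjusted p under 0.05 in a limma fit over all genes tested, which is 0.94% of them. Of these, 86 were higher in WT_star (0.557% of the genes tested) and 59 lower (0.382%). With every library scaled to the same total instead, the split was 104 higher and 38 lower, so that 73.2% rather than 59.3% of the changed genes were higher, and the median log2 fold change of all genes moved from −0.00 to 0.04. An unadjusted p under 0.05 was reached by 2353 genes. The number depended on single libraries. Without WT 26, 27 or 28 it was 33, 40 or 41, without WT_star 20 or 21 it was 31 or 48, and without WT_star 33 or 34 or WT 25 it was 165, 133 or 182. Without 1 of the KO libraries, which enter only the estimate of spread, it was 88 to 97.

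Most changes were moderate. The median size among the 145 was 0.73 on the log2 scale, against 0.15 over all genes tested. Beyond a log2 fold change of 1 there were 32 higher and 15 lower genes, and 98 changed genes lay below that size. The values of the 2 groups did not overlap for 140 of the 145, and over all genes tested this held for 9.07%, with 4.12% higher and 4.95% lower in WT_star. The exceptions were Oas1b, Gm5096, Bhmt, Spsb3 and 1810058I24Rik. Protein-coding genes made up 128 of the 145. The call held without each of the 8 libraries in turn for 23 genes, 18 higher and 5 lower, and the other 122 reached an adjusted p of 0.05 to 0.16 in at least 1 of these fits. The genes that held were Cyp17a1, Capn3, 2610507I01Rik, Them7, Lipo3, AI506816, As3mt, Ift81, Kdm2b, Metap1d, Cyp2c68, Gstm6, Sfxn2, Ctsl, Ehd4, Zfp874a, Helz2 and Zkscan3, all higher, and Bend7, Slc38a2, Arhgef10, Ankrd22 and Slk, all lower.

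**Figure D1:**
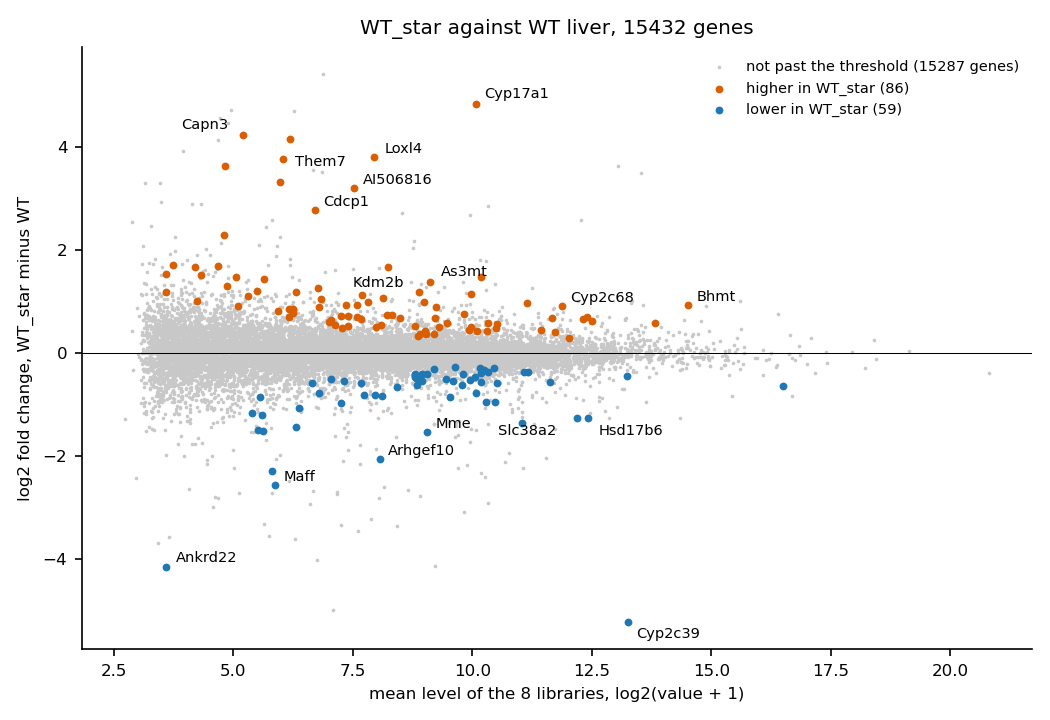
Log2 fold change (WT_star minus WT) of the 15432 genes against their mean level over the 8 libraries, as log2(value + 1). The 86 genes called higher in WT_star are orange, the 59 called lower are blue and the others grey. Cyp17a1 is the highest and Cyp2c39 the lowest of the called genes.

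Among 32 tested genes of steroid and retinoid metabolism, Cyp17a1 rose, Hsd17b6 fell and the other 30 did not pass the test. The share called was 6.25%, against 0.94% of all genes tested. This list, like the others, was chosen with earlier results of these data known, so its count is no independent evidence. Cyp17a1 encodes the hydroxylase and lyase that turns progestogens into androgen precursors, and lies on chromosome 19 at 46667165 to 46673172 (all positions are on GRCm38). Its values were 69.36, 83.78, 53.65 and 62.82 in WT 25, 26, 27 and 28, and 3244, 1278, 2565 and 1243 in WT_star 20, 21, 33 and 34. Every WT_star library stood far above every WT library, although the WT_star libraries also spread widely. The means were 67.4 ± 12.7 and 2082 ± 989 (SD, n = 4 each), and the log2 fold change was 4.82 (SE 0.44, adjusted p = 6.6e-05), or 28.2-fold. KO livers averaged 1191 and KO_star livers 1028, so WT was the low group for this gene. Hsd17b6, a hydroxysteroid dehydrogenase, read 5115, 10288, 7285 and 8609 in WT and 2556, 3595, 3712 and 2829 in WT_star. The groups did not overlap, but the fall of 1.27 on the log2 scale had an adjusted p of 0.046 that rose to as much as 0.15 when a library was left out.

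Cytochromes of the Cyp2 family, which oxidize drugs, retinoids and fatty acids, gave the steepest fall and a well-separated rise. Of 32 tested members Cyp2c39 and Cyp2c68 passed the test (6.25%, against 0.94% of all genes tested). Both lie in the Cyp2c cluster of chromosome 19. Cyp2c39, a mouse enzyme known to hydroxylate retinoic acid, stood at 19779, 23299, 13893 and 13279 in WT and at 128.1, 7421, 291.7 and 161.9 in WT_star. All WT_star libraries were below all WT libraries, but WT_star 21 was much nearer to WT than the other three. The log2 fold change was −5.21 (SE 0.93, adjusted p = 0.021), and it lost its call in 4 of 8 fits without 1 library, with an adjusted p of up to 0.078. KO averaged 224.3 ± 42.3 (SD, n = 3) and KO_star 151.3 ± 39.2 (SD, n = 6). Cyp2c68 read 2116, 2768, 2873 and 2649 in WT and 5108, 4770, 4610 and 4983 in WT_star. Its log2 fold change was 0.91 (SE 0.09, adjusted p = 2.8e-05), 1.88-fold. Cyp2c genes are close copies of each other, and how the authors' counting divided shared reads is not given in the sources used here.

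Genes of methionine, one-carbon and creatine metabolism moved in both directions. Of 36 tested members, 2 rose and 1 fell (8.33%, against 0.94% of all genes). The list was chosen with earlier results of these data known, so its count is no independent evidence. As3mt, which methylates arsenic with S-adenosylmethionine as the donor, read 271.2, 317, 310.5 and 324.3 in WT and 882.4, 658.1, 918.6 and 742.6 in WT_star. Its groups lay well apart, and the rise was 1.38 on the log2 scale (SE 0.13, adjusted p = 2.5e-05), 2.6-fold. Bhmt, which remethylates homocysteine with betaine, read 22385, 11100, 17160 and 14543 in WT and 36240, 28121, 21408 and 36325 in WT_star. WT 25 exceeded WT_star 33, so the groups overlapped, and the log2 fold change was 0.92 (SE 0.20, adjusted p = 0.044). The copies Bhmt-ps1 and Gm5096 gave 0.98 and 0.96, and reads may be divided among these copies. Gamt, which makes creatine from guanidinoacetate, fell by 0.56 on the log2 scale (SE 0.13, adjusted p = 0.046). Bhmt and Gamt kept their calls in only 2 and 1 of the 8 fits without 1 library. Cth, the enzyme that releases cysteine from cystathionine, read 7727 in WT_star 20 and 2967 to 3817 in the other three, against 1933 to 2846 in WT, and its log2 difference of 0.88 did not pass the test (adjusted p = 0.11).

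Transport and amino acid genes contributed single members. Slc38a2 is a sodium-coupled carrier of small neutral amino acids. Of 25 tested amino acid transporters it alone changed (4%, against 0.94% of all genes tested). It read 5734, 6997, 7011 and 6516 in WT and 2344, 2903, 2307 and 3578 in WT_star, with no overlap. The log2 fold change was −1.26 (SE 0.18, adjusted p = 0.0022). Abcb11, the pump that exports bile salts from hepatocytes, was the only 1 of 30 tested bile acid genes to change (3.33%). It read 11152, 10864, 12460 and 11728 in WT and 15315, 18347, 16827 and 19468 in WT_star. It rose by a log2 value of 0.59 (SE 0.12, adjusted p = 0.021). Gldc, the glycine-decarboxylating subunit of the glycine cleavage system, rose by 0.61 (adjusted p = 0.046). It was alone among 38 tested genes of the urea cycle and amino acid breakdown (2.63%). Abcb11 and Gldc kept their calls in 4 and 1 of the 8 fits without 1 library. Among 48 genes of xenobiotic handling, of which 4.17% were called, the glutathione transferase Gstm6 rose by 0.89 (SE 0.14, adjusted p = 0.0038).

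Tpmt, which methylates thiopurine drugs, was the other xenobiotic gene to pass the test and fell. Its values were 1719, 1737, 1501 and 1573 in WT and 725.6, 630.1, 1124 and 954 in WT_star. No WT_star library reached the WT range, and the log2 fold change was −0.96 (SE 0.19, adjusted p = 0.024). Apoa1, the main protein of high-density lipoprotein, was the only 1 of 12 tested hepatocyte markers to change (8.33%, against 0.94% of all genes tested). It read 97649, 118597, 122009 and 115793 in WT and 64890, 90834, 71026 and 65723 in WT_star, a log2 difference of −0.64 (SE 0.14, adjusted p = 0.044). Tpmt and Apoa1 kept their calls in 3 and 2 of the 8 fits without 1 library, and edgeR did not call Apoa1. Alb, the gene of albumin, was lower without overlap but missed the threshold (log2 difference −0.38, adjusted p = 0.11). In bulk liver, fewer cells of a type and less RNA per cell cannot be told apart.

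**Figure D2:**
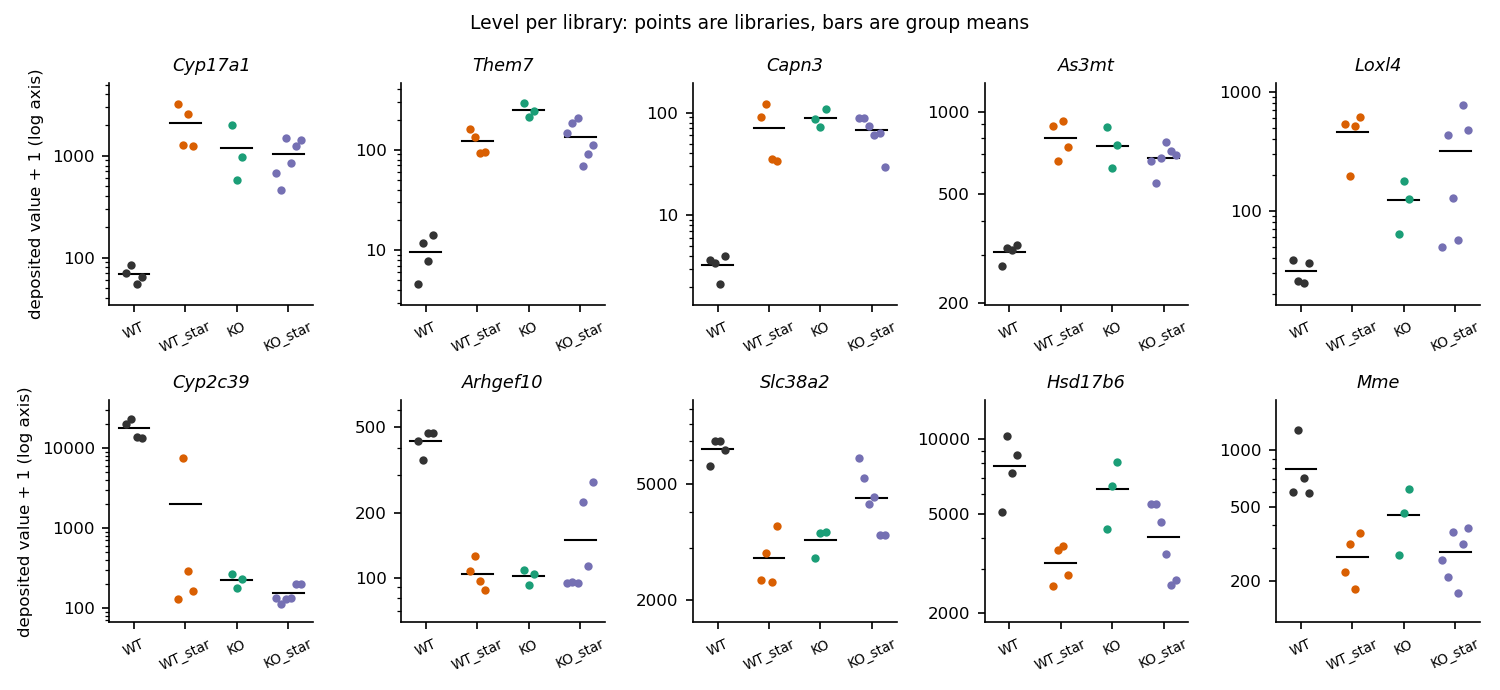
Deposited value plus 1 on a log axis for 10 changed genes in the 4 WT, 4 WT_star, 3 KO and 6 KO_star libraries, with points for libraries and bars for group means. WT_star does not overlap WT in any panel, which the rule that named these genes required for all but Capn3. For Cyp2c39 the library WT_star 21 stands between its group and WT.

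Genes of cell adhesion and the cytoskeleton changed in 5 of 28 tested members (17.9%, against 0.94% of all genes tested), with 4 higher and 1 lower. The list was drawn up with these genes' results known, so its count is no independent evidence. Loxl4, a lysyl oxidase homologue that cross-links collagen, read 37.35, 24.64, 23.97 and 35.47 in WT and 530.3, 196.2, 511.6 and 610.6 in WT_star. The groups lay far apart, yet the log2 fold change of 3.79 (SE 0.79) had an adjusted p of 0.043, and none of the 8 fits without 1 library kept the call (adjusted p up to 0.14). Cdcp1, a transmembrane substrate of Src-family kinases, stood at 116.5, 36.72, 247 and 342.4 in WT_star and at 9.856 to 31.12 in WT (2.77, adjusted p = 0.027). Itga6, the integrin subunit of laminin receptors, rose from 176.1, 161.8, 93.6 and 130.7 to 423.7, 470.6, 271.7 and 662.1, a log2 difference of 1.66 (SE 0.30, adjusted p = 0.018). Its KO mean was 153.6, close to WT. Neb, which encodes the giant thin-filament protein of muscle, lay between 516.8 and 720.3 in WT and between 1390 and 2546 in WT_star (1.47, adjusted p = 0.04). Cdcp1, Itga6 and Neb lost their calls in 5, 4 and 7 of the 8 fits without 1 library.

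The member that fell was Arhgef10, a guanine nucleotide exchange factor of small GTPases. It read 428.6, 352.4, 471.4 and 469.2 in WT and 105.7, 124.7, 95.27 and 86.63 in WT_star, and the groups were well apart. The log2 fold change was −2.05 (SE 0.30, adjusted p = 0.0029). Mme, which encodes the peptidase neprilysin, fell from 598.5, 1284, 707.7 and 587.7 to 223.9, 316, 181.1 and 358.9, a log2 fold change of −1.53 with an adjusted p of 0.043. Its call was kept in 2 of the 8 fits without 1 library.

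A few genes were close to silent in 1 of the 2 groups. Of those below, Capn3, 2610507I01Rik and Lipo3 passed the filter through WT_star alone and Ankrd22 through WT alone. Their low values in the other group are therefore no separate support for a change. Capn3, a calpain protease best known from skeletal muscle, read 2.668, 2.464, 1.141 and 3.04 in WT, at or below the floor, and 89.58, 120.8, 34.11 and 33 in WT_star (log2 fold change 4.22, SE 0.41, adjusted p = 2.8e-05). Them7, a member of the thioesterase superfamily by its symbol, read 3.557, 10.68, 6.849 and 13.17 in WT and 161.2, 133.4, 92.92 and 94.88 in WT_star (3.75, SE 0.36, adjusted p = 2.8e-05). The transcript 2610507I01Rik read 3.424 to 8.893 in WT and 88.21 to 183.6 in WT_star (4.14, SE 0.32, adjusted p = 3.9e-06). The WT_star libraries of these genes lay far above the WT libraries, and KO averaged 87.87, 248.1 and 163.4 for Capn3, Them7 and 2610507I01Rik. Lipo3, a lipase family member, read 0 to 8.214 in WT and 38.66 to 67.04 in WT_star (adjusted p = 0.0022). Ankrd22 went the other way, with 36.46, 23, 11.41 and 16.21 in WT against 0, 0.9664, 0 and 0 in WT_star (adjusted p = 0.0032), and KO and KO_star averaged 0.6696 and 2.045. No fold is given for Ankrd22 because the WT_star libraries lay under the floor.

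Regulators of chromatin and transcription were also among the changed genes. Kdm2b is a histone demethylase that binds unmethylated CpG islands. Of 30 tested genes of DNA methylation and histone demethylation it alone passed the test (3.33%, against 0.94% of all genes tested). It read 316.6, 289.9, 235.1 and 311.1 in WT and 614.5, 677.4, 616.3 and 711.6 in WT_star, a log2 difference of 1.19 (SE 0.17, adjusted p = 0.0022). The KO and KO_star means were 771.9 and 706.1. Maff, a small bZIP factor, fell from a mean of 99.44 to 15.93 (−2.56, adjusted p = 0.033). Nfkbia, the inhibitor that holds NF-κB in the cytoplasm, fell by 0.85 on the log2 scale and the antiproliferative gene Tob2 by 0.95 (adjusted p = 0.047 and 0.018). Nfkbia and Tob2 kept their calls in 1 and 3 of the 8 fits without 1 library, and edgeR did not call Nfkbia. Ift81, a tubulin-binding subunit of intraflagellar transport, lay between 44.46 and 49.08 in WT and between 85.04 and 140 in WT_star (1.19, adjusted p = 0.0014).

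Most interferon-stimulated genes had a higher mean in WT_star than in WT, and 9 of them passed the test. Cells induce them through a transcription complex that contains Irf9 and recognizes a promoter sequence called the interferon-stimulated response element (ISRE). Of 58 listed genes 57 were tested, with a median of 0.56 on the log2 scale, against −0.00 over all genes. The difference was positive in 54 and negative in 3. The test called 9 of the 57 higher (15.8%, against 0.557% of all genes tested) and none lower. At an unadjusted p under 0.05 it was 38 higher, where all genes tested gave 2353 of 15432 in either direction. In 20 members WT_star lay above WT without overlap (4.12% of all genes tested), and in 1, Iigp1 (log2 difference −0.27, adjusted p = 0.34), below it. The called genes were Irf9, Ifih1, Eif2ak2, Dhx58, Irgm1, Ifi44, Adar, Lgals3bp and Oas1b. The list was drawn up with its direction in these data known, so its count is no independent evidence of that direction.

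Irf9, the DNA-binding subunit of the complex, read 522, 520.7, 373.2 and 419.5 in WT and 755.1, 721.9, 755.1 and 667.3 in WT_star. The WT_star libraries were tight and above all WT libraries, a rise of 0.67 on the log2 scale (SE 0.12, adjusted p = 0.016). Ifih1, a sensor of double-stranded RNA, read 971.1, 726.9, 820.7 and 802.5 in WT and 1191, 1113, 1179 and 1218 in WT_star (0.51, adjusted p = 0.018). Its regulator Dhx58 read 164.5, 110.1, 146.1 and 110.5 and then 291.1, 240.6, 263.5 and 210.4 (0.93, adjusted p = 0.021). Eif2ak2, the RNA-activated kinase that halts translation, lay between 408.4 and 490.9 in WT and between 561 and 646.5 in WT_star (0.43, adjusted p = 0.018). Adar, which edits adenosine to inosine in RNA, rose by 0.50 (adjusted p = 0.039), and Ifi44 by 1.43 (adjusted p = 0.029). Irgm1, a GTPase of resistance to intracellular microbes, read 1212, 855.9, 1114 and 966.7 and then 1672, 1513, 1360 and 1614 (0.58, adjusted p = 0.028). Of the 9 called members Oas1b alone had groups that overlapped.

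Other classical members did not pass the test. Isg15, a ubiquitin-like modifier, read 124.5, 77.21, 95.88 and 65.86 in WT and 192.6, 140.1, 149.4 and 146.5 in WT_star (log2 difference 0.81, adjusted p = 0.059). Ifit1, an RNA-binding inhibitor of translation, read 225, 98.56, 78.76 and 60.8 and then 318, 236.8, 262.3 and 276.4 (1.41, adjusted p = 0.069). In both genes WT 25 was the highest WT library. The mean log2 level over the list was 7.88 in WT 25, 7.25 to 7.5 in WT 26, 27 and 28 and 7.97 to 8.27 in WT_star, so all WT_star libraries lay above all WT libraries, with WT 25 the nearest. Without WT 25 the count of called members was 21, without WT 26 or 27 it was 2 or 1, without WT 28 or WT_star 20 it was 0, and without WT_star 21, 33 or 34 it was 2, 6 or 9. On recovered reads edgeR called 8 members and DESeq2 24, all higher. KO livers had list levels of 7.90 to 8.03, also above the WT range. KO_star livers ran from 7.75 to 8.35 and overlapped it. KO_star 16 and 17, at 7.75 and 7.82, lay below WT 25, and KO_star 29 equalled it at 7.88. Helz2, an interferon-induced helicase that was not on the list, lay between 3694 and 4678 in WT and between 5966 and 6449 in WT_star (0.65, SE 0.10, adjusted p = 0.0049).

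**Figure D3:**
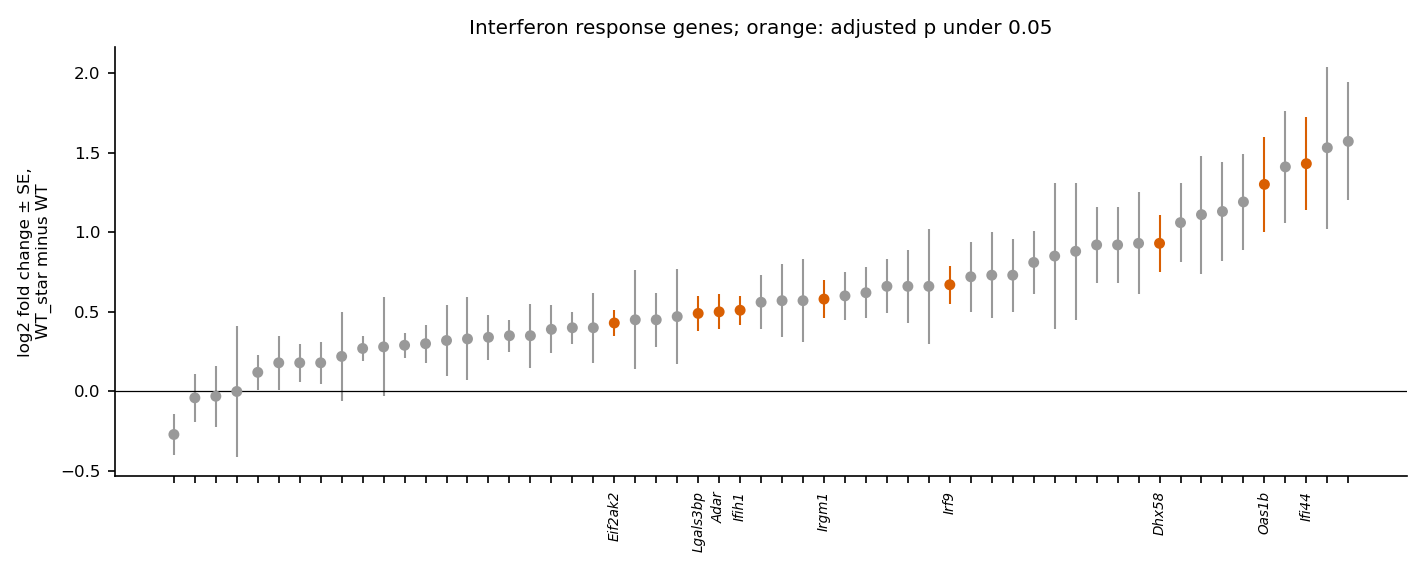
Log2 fold change (WT_star minus WT) with its SE for the 57 tested interferon-stimulated genes, with the 9 called genes in orange and named on the axis. All but 3 of the points lie above 0.

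The promoters of Irgm1, which was called, and of Isg15, which missed the threshold, show where this sequence lies in interferon-stimulated genes. The ISRE was searched as GAAANNGAAA and its reverse TTTCNNTTTC on both strands, with overlapping matches counted, in the 250 bases before each gene's start. The windows are RefSeq sequences on GRCm38.p6, on the minus strand in both genes and printed 5′ to 3′ along the gene, and capitals mark the bases that a match covers. The Irgm1 window is chr11:48871421-48871670 with 2 overlapping matches, the first starting 30 bases before the gene. The Isg15 window is chr4:156200819-156201068 with 3, the first starting 78 bases before it.
Irgm1: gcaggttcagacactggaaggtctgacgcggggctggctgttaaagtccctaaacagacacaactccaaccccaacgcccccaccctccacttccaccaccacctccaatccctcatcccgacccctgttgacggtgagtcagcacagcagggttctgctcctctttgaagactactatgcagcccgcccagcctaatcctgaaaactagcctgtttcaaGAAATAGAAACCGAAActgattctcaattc
Isg15: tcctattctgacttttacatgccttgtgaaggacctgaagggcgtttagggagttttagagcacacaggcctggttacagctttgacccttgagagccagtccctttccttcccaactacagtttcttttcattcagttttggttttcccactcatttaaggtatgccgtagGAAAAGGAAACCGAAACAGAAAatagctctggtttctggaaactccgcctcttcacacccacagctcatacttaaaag
A match was found in 19 of the 42 tested interferon members with a window (45.2%), against 341 of 10636 tested genes with one (3.21%). Among the 7 called members with a window, Irgm1 alone held a match. A match describes the letters and not a bound site.

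For antigen presentation genes, many of which interferon also induces, the median over 26 tested members was 0.01 on the log2 scale. Neither limma nor edgeR called any of them, whereas DESeq2 called 7 higher. At an unadjusted p under 0.05 limma had 9 higher and 2 lower, where all genes tested gave 2353 of 15432 in either direction. In 8 members WT_star lay above WT without overlap and in 0 below it, against 4.12% and 4.95% of all genes tested. The values were split within WT_star. H2-T23, a class Ib histocompatibility gene, read 490.9, 478, 422.3 and 439.8 in WT and 3081, 2910, 1748 and 384.7 in WT_star 20, 21, 33 and 34. H2-Eb1, a class II chain, read 6.225, 14.78, 12.56 and 12.16 in WT and 138.8, 80.21, 125.9 and 11.34 in WT_star. In both genes WT_star 34 lay at the WT level and the other three WT_star libraries far above it.

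H2-Q1 went the opposite way, at 772.8, 787.7, 700.8 and 735.7 in WT and 175.6, 81.18, 518.7 and 930.3 in WT_star. WT_star 20 and 21 were low there, WT_star 33 lay between and WT_star 34 was the highest of all 8 libraries. H2-K1, the classical class I gene of the region, read 7506, 7944, 6618 and 7262 in WT and 12672, 11597, 11842 and 9572 in WT_star, without overlap (log2 difference 0.63, adjusted p = 0.086). The pseudogene H2-T-ps at 36109234 on chromosome 17 read 461.6 to 621.2 in WT and 10.75, 5.798, 204.7 and 418.7 in WT_star, and its neighbour Gm8909 at 36164443 read 163.2 to 202.9 and then 2.687, 3.866, 132.9 and 267.1. In KO, H2-T-ps read 170.2 to 196.2 and Gm8909 3.363 to 7.872. H2 genes are near-identical copies and differ between alleles, and reads may be divided among them.

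For the B cell markers the median over 9 tested genes was 0.83 on the log2 scale. Ighm passed the test (11.1%, against 0.94% of all genes tested), edgeR called none of the 9 and DESeq2 called 2. Of the 9, 6 reached an unadjusted p under 0.05, where all genes tested gave 2353 of 15432 in either direction. Ighm, the heavy chain of immunoglobulin M, read 62.25, 69.82, 39.95 and 42.56 in WT and 74.35, 86.97, 116.4 and 107.3 in WT_star (0.85, SE 0.19, adjusted p = 0.046). Its call was lost in 6 of 8 fits without 1 library. The mean log2 level of the list was 3.75, 4.62, 3.55 and 3.53 in WT and 4.01, 4.68, 5.24 and 4.49 in WT_star, so WT 26 lay inside the WT_star range. The part of these cells in the interferon values was not tested.

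Hepatocytes raise acute phase genes under inflammatory cytokines, and the highest values of several of these genes were in WT_star 33 and 34. The median log2 difference of the list was 0.23, with 18 members positive and 12 negative. None of 30 tested genes was called by limma or edgeR, although 9 had an unadjusted p under 0.05 on the higher side and DESeq2 called 7 higher. Over all genes tested, 2353 of 15432 had such an unadjusted p in either direction. Saa1, the serum amyloid of the acute phase, read 731, 469.8, 205.5 and 139.8 in WT and 419.2, 317.9, 76343 and 15448 in WT_star 20, 21, 33 and 34 (log2 difference 3.49, adjusted p = 0.26). Lcn2, which binds bacterial siderophores, read 464, 399.1, 36288 and 1067 in WT_star. Hp, the haemoglobin-binding haptoglobin, read 27200, 34609, 175086 and 51599 in WT_star, against 24705 to 28190 in WT. WT_star 20 and 21 stood near WT for Saa1, WT_star 33 was the highest library in each of these genes, and WT_star 34 stood between.

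The mean log2 level of the acute phase list was 11.34 to 12.11 in WT and 11.51, 11.50, 13.88 and 12.62 in WT_star. Cyp3a11, a main drug-oxidizing cytochrome, was low in the same libraries, with 129035, 149728, 32229 and 31096 in WT_star against 76621 to 183145 in WT. Without WT_star 33 the number of changed genes over the whole table was 165, with 83 higher and 82 lower. The interferon level of WT_star 33 was the highest of the group at 8.27, and those of WT_star 20 and 21, where Saa1 stood near WT, were 8.06 and 7.97.

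No gene of the daily clock passed the test, although some did not overlap between the groups. In this loop Arntl or its relatives, with Clock or Npas2, activate Per and Cry genes and outputs such as Dbp through the E-box, and the Per and Cry proteins and Ciart repress that activation. Of 19 tested genes none was called by limma or edgeR, and DESeq2 called 4 lower. At an unadjusted p under 0.05 limma had 3 higher and 5 lower, where all genes tested gave 2353 of 15432 in either direction. Per1 read 1115, 2380, 1359 and 1366 in WT and 101.2, 153.7, 83.51 and 695.1 in WT_star, with every WT_star library lower (log2 difference −3.09, adjusted p = 0.058). Ciart read 145, 639.8, 135.8 and 195.6 and then 17.92, 15.46, 34.11 and 21.66 (−3.33, adjusted p = 0.16). Dbp read 1664, 4303, 1007 and 1730 and then 240.1, 375.9, 965.7 and 45.38 (−2.90, adjusted p = 0.36). Per1, Ciart and Dbp were thus lower in all WT_star libraries without passing the test. Other repressors of the list did not pass it either, with log2 differences of −0.90 for Per2, −1.73 for Per3, 0.37 for Cry1, −0.22 for Cry2 and 0.06 for Nr1d1 (adjusted p = 0.4, 0.37, 0.65, 0.64 and 0.96).

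Arntl and Npas2 stood the other way, also without passing the test. Npas2 read 43.57, 4.928, 17.12 and 9.12 in WT and 230.2, 160.4, 96.45 and 240.3 in WT_star (log2 difference 3.54, adjusted p = 0.22), and Arntl read 263.2, 61.6, 256.8 and 125.6 and then 754.3, 725.8, 466.9 and 855 (2.17, adjusted p = 0.24). WT 26 was at the far end of the WT range for each of these 5 genes. In 3 of the 19 clock genes WT_star lay above WT without overlap and in 6 below it. Over all genes tested this held for 4.12% and 4.95%. The labels give no time of collection, and its part in any of the differences between the groups was not tested.

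**Figure D4:**
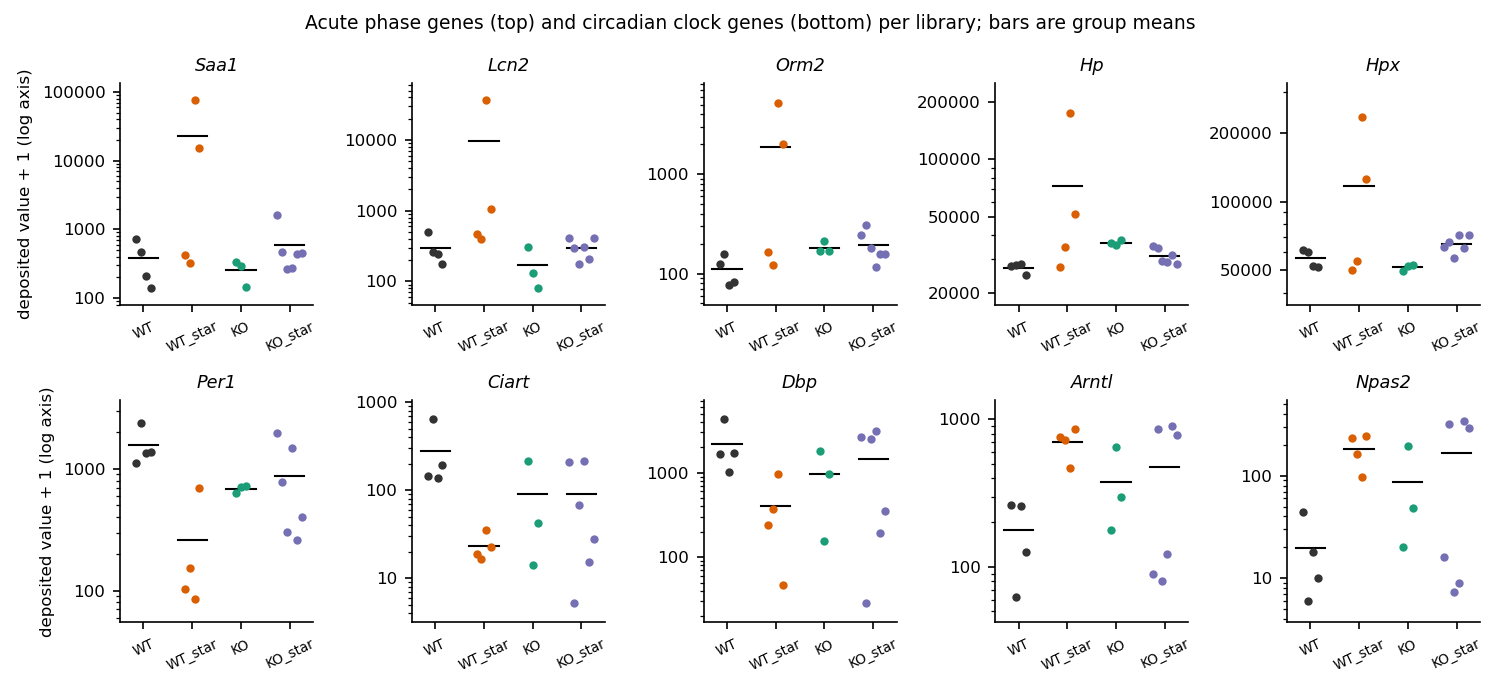
Deposited value plus 1 on a log axis for 5 acute phase genes (top) and 5 clock genes (bottom) in the 17 libraries by group, with points for libraries and bars for group means. Among WT_star, libraries 33 and 34 carry the high Saa1 values, whereas the 5 clock genes shown, none of them called, have no overlap between WT_star and WT.

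The promoters of Per1 and Ciart, which were not called, are shown because their levels did not overlap between the groups, and they were picked after their values were seen. The E-box was searched as CACGTG, which reads the same on both strands, in the same windows of 250 bases from RefSeq on GRCm38.p6. Capitals mark the matches. The Per1 window is chr11:69098699-69098948 on the plus strand, with a match starting 166 bases before the gene. The Ciart window is chr3:95882229-95882478 on the minus strand, with 3 matches, the first starting 116 bases before it.
Per1: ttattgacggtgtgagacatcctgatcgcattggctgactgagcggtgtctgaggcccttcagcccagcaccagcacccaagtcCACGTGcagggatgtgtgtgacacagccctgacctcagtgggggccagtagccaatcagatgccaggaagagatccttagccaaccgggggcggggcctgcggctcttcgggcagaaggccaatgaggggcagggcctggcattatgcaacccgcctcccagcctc
Ciart: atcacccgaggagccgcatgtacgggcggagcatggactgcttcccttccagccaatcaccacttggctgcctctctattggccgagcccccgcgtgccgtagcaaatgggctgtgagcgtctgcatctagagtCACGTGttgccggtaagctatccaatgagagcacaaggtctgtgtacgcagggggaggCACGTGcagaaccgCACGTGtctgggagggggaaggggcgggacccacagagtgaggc
The motif was present in 5 of the 16 clock genes with a window (31.2%), namely Bhlhe41, Ciart, Cry1, Per1 and Tef, against 1029 of 10636 tested genes (9.67%). This describes the letters of the windows only.

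Some of the changed genes lay close together in the genome. On chromosome 19, 19 of 523 tested genes were called (3.63%), on chromosome 2 it was 19 of 1144 (1.66%) and on chromosome 13 it was 10 of 634 (1.58%). Chromosomes 2 and 19 held 38 of the 145 calls (26.2%) and 10.8% of the genes tested. No gene of 458 on the X chromosome and none of 22 on the mitochondrial chromosome was called by limma. Called genes with at least 2 others that started within 2 Mb on either side were joined into runs of at least 3. There were 7 runs with 30 of the called genes (20.7%), 25 of them higher and 5 lower in WT_star. Of the 155 genes tested between their ends, 19.4% were called, against 0.94% of all genes tested. Each run begins and ends at a called gene and holds at least 3 by definition. This share and the counts per run were thus bound to be high and are no evidence of clustering.

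The longest run by number was on chromosome 2 from 119516505 to 122056598, with 7 of 48 tested genes called. Capn3, Ndufaf1, Jmjd7, Ehd4 and Eif3j1 were higher, and Itpka and Exd1 lower. Ehd4, which drives endocytic recycling, rose by 0.69 (SE 0.12, adjusted p = 0.011). Eif3j1, a subunit of translation initiation factor complex eIF3, read 168.1, 162.6, 199.8 and 172.3 in WT and 480.1, 508.3, 234.1 and 317.7 in WT_star (1.06, adjusted p = 0.031). On chromosome 19, from 46341121 to 47864790, 6 of 24 genes were called, and 5 of them, Mfsd13a, Sfxn2, Cyp17a1, As3mt and Gsto1, were higher while the kinase gene Slk was lower. As3mt lies at 46707458 to 46741099, next to Cyp17a1. Gsto1, an omega-class glutathione transferase, rose by 0.57 (adjusted p = 0.028) and Sfxn2, a mitochondrial carrier, by 0.75 (adjusted p = 0.0028).

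The other runs were smaller. Cyp2c39, Cyp2c68 and Fra10ac1 formed the other run on chromosome 19, from 38188481 to 39741054, with 3 of 14 genes called. On chromosome 5, from 120812635 to 122989823, 5 of 49 genes were called, of which Oas1b, Acad10, Ift81 and Kdm2b were higher and the ATP-gated channel P2rx4 lower. On chromosome 11, from 58888153 to 59202385, it was Zfp39, Guk1 and 2610507I01Rik (3 of 9), and on chromosome 13, from 64161824 to 64441773, it was Habp4, the lysosomal protease gene Ctsl and Cdk20 (3 of 7), all of them higher. The other run on chromosome 2, from 71271063 to 71858416, held Slc25a12, Metap1d and Itga6 (3 of 4), all higher. Some neighbours share reads or overlap, as in the Cyp2c cluster, and the strand setting of the counting is not given in the sources used here.

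**Figure D5:**
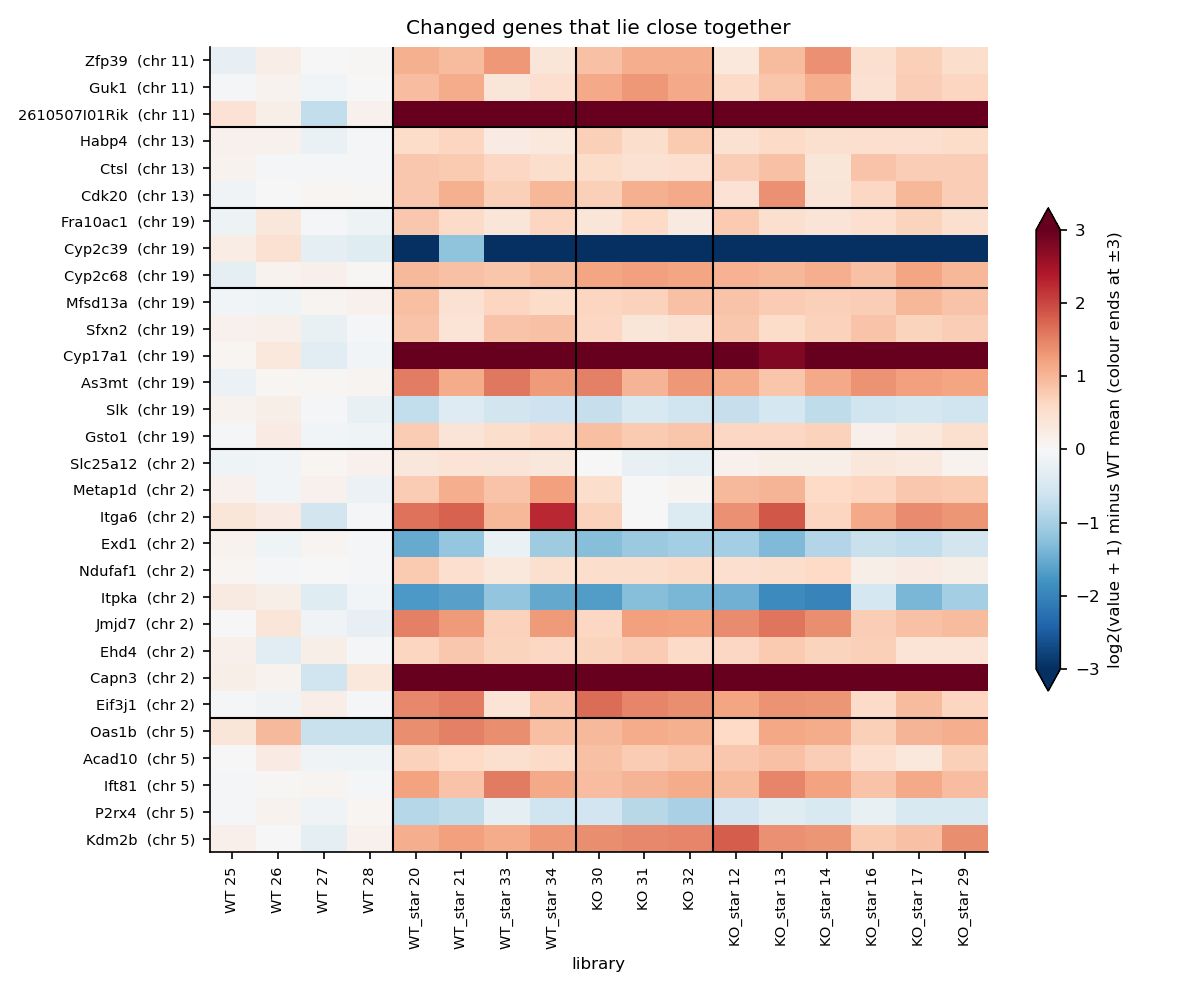
Log2(value + 1) minus the WT mean for the 30 called genes in 7 runs along the chromosomes (rows) in the 17 libraries (columns), with colour ends at 3 on either side. The 4 WT_star columns are mostly warm in the 25 genes called higher and cold in the 5 called lower.

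The neighbourhood of Khdc3 on chromosome 9 held no called gene. Within 10 Mb of Khdc3, 138 genes were tested and limma called 0, with 21 at an unadjusted p under 0.05. Over all genes tested limma called 0.94%, and 2353 of 15432 had an unadjusted p under 0.05. At such shares few calls would fall among 138 genes anywhere, so these counts do not set the region apart. The 5 called genes of chromosome 9, Zpr1, Apoa1, Rasa2, Spsb4 and Cdcp1, lay 23.4 to 50.1 Mb away. Wdr72, 1.01 Mb from Khdc3, separated the Khdc3 genotypes in most libraries. It read 1.643 to 6.225 in WT and 0 to 2.352 in WT_star, both under the filter, against 554 to 855.9 in KO. In KO_star it read 268.6 to 487.4 in 5 libraries and 2.112 in KO_star 13.

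Some genes varied within WT_star far more than within WT. Of 9512 genes with a WT_star mean of at least 100 and a WT range under 1 on the log2 scale, 47 ranged over more than 2 among the WT_star libraries. The reverse, with the groups exchanged, was seen in 24 genes. The median log2 range of genes with a mean of at least 100 was 0.34 in WT and 0.36 in WT_star. Gm13394 read 3094, 1456, 5.881 and 2503 in WT_star 20, 21, 33 and 34, 2209 to 3001 in WT and 2057 to 2252 in KO. Gm45910 read 652.1, 4.832, 1228 and 1506 in WT_star, 1297 to 1657 in WT and 2.664 to 7.847 in KO. The ribosomal protein pseudogene Rps18-ps6 on chromosome 13 read 0.8958, 7.731, 375.2 and 916.9 in WT_star, 733.9 to 912 in WT and 0.8879 to 4.92 in KO. In KO_star, Gm13394 ranged from 3.17 to 2743, Gm45910 from 690.7 to 1816 and Rps18-ps6 from 3.176 to 766.2. In each of these genes at least 1 WT_star library was at the WT level and at least 1 near the floor. Near-identical copies may share their reads, and the cause of the spread was not tested.

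A converse difference in ancestry was measured between Khdc3-null mice. KO_star against KO adds WT forebears to a KO ancestry, whereas WT_star against WT adds KO forebears to a WT ancestry, and the contrasts have no library in common. There limma called 220 genes (1.43%), 151 higher and 69 lower. Without KO 30, 31 or 32 the count was 67, 37 or 56. Of these, 8 were also called between WT_star and WT, which is 5.52% of the 145 and 3.64% of the 220. Mmd2, Metap1d, Polm, Slc25a12 and 1810058I24Rik moved in the same direction in both, and Smurf1, Gm33543 and Tpmt in opposite directions. Mmd2, of the progestin and adiponectin receptor family, had log2 fold changes of 1.14 (adjusted p = 0.027) in WT_star against WT and 1.35 (adjusted p = 0.0083) in KO_star against KO. Metap1d, a mitochondrial methionine aminopeptidase, had 0.99 and 0.60 (adjusted p = 0.0014 and 0.033). Tpmt had −0.96 and 0.89 (adjusted p = 0.024 and 0.027).

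The difference between these contrasts, (WT_star minus WT) less (KO_star minus KO), was itself tested. It compares opposite changes of ancestry and does not measure 1 ancestry effect in 2 genotypes. Limma called 206 genes in it (1.33%), 84 with a positive and 122 with a negative difference, and 57 of them were among the 145, which enter it with the same WT_star and WT values. The count was 497 without WT_star 33, 74 and 119 without WT_star 20 and 21, 131 and 111 without WT 25 and 28, and 77, 80 and 82 without KO 30, 31 and 32. Cyp17a1 differed by 4.97 (adjusted p = 0.0013), since its KO_star minus KO value was −0.15 (adjusted p = 0.9). Capn3 and Them7 differed by 4.68 and 4.73 (adjusted p = 0.00045 and 0.00015), and Slc38a2 by −1.71 (adjusted p = 0.0023). For each of these genes the KO mean lay nearer to the WT_star mean than to the WT mean. Atp6v0c-ps2, Rnps1-ps and Rps2-ps10 had differences of −4.58, −4.79 and −5.10 while their WT_star minus WT values were only −0.33, −0.26 and −0.28, so the KO and KO_star libraries carried them. The interferon list had a median of 0.06 in KO_star against KO, with 0 members called by limma.

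Of the 40 gene lists examined, 29 of pathways and 11 of cell types, 12 held at least 1 called gene and 28 none. Over all genes tested, 2353 of 15432 had an unadjusted p under 0.05 in either direction. For fatty acid oxidation genes, which break down fat for energy, the median over 46 tested members was −0.17 on the log2 scale, with 36 negative. None was called by limma, edgeR or DESeq2, and 3 were lower at an unadjusted p under 0.05. Cell division genes had a median of −0.40 over 41 tested members, 40 of them negative. None of these was called by limma, edgeR or DESeq2 and 1 was lower at an unadjusted p under 0.05. Their mean log2 level was 5.98 in WT 26, 7.0 to 7.19 in WT 25, 27 and 28 and 6.21 to 6.56 in WT_star, so that WT 26 was the lowest of the 8 WT and WT_star libraries and the groups overlapped.

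Imprinted genes, which are expressed from the maternal or the paternal copy alone, had a median of −0.01 over 35 tested members. Neither limma nor edgeR called any, DESeq2 called 1 higher, and 3 were higher at an unadjusted p under 0.05. Only 2 of 17 listed genes of the subcortical maternal complex and the oocyte reached the filter in liver. Cholesterol synthesis and uptake genes had a median of 0.17 over 27 tested members, 21 of them positive, with none called by limma or edgeR and 1 in each direction by DESeq2, and 2 higher and 1 lower at an unadjusted p under 0.05.

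Markers of resident cells gave few calls. Those of Kupffer cells and macrophages had a median of 0.26 over 16 tested genes, none of them called by limma, edgeR or DESeq2, and 1 was higher at an unadjusted p under 0.05. Their mean log2 level was 8.24 to 8.54 in WT and 8.09, 8.17, 9.38 and 8.80 in WT_star 20, 21, 33 and 34, so the libraries with the highest Saa1 were also those with the highest level of macrophage markers. The part of these cells in the acute phase values was not tested. Markers of stellate cells and of liver endothelial cells had medians of −0.14 and −0.03 over 16 and 15 tested genes, with none called by limma, edgeR or DESeq2 and 2 of each list lower at an unadjusted p under 0.05.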

How the data were processed

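Per the labels' protocols, total RNA was isolated with the Qiagen RNeasy Lipid Tissue kit and sequenced after ribosomal depletion with a stranded Illumina kit (Ribo-Zero Plus). GRCm38, cutadapt, HISAT2 and DESeq2 stand in the submitters' processing notes without versions. No counter, annotation or strand setting is given in the sources used here. What the authors deposited is a normalized signal, the reads of each gene over a size factor of its library, and with a tolerance of 0.001 reads 100.0% of them came out as whole reads. A read was worth 0.8214 to 1.176 in the 8 libraries, and floors cover counting error only. Over genes with at least 20 reads, all 12 replicate pairs of the WT and WT_star groups differed by more than sampling noise (chi-square per degree of freedom 8.53 to 101.68).

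Values were tested as log2(value + 1), which understates the change of low genes, with limma 3.58.1 in R 4.3.3 (trended, robust, statmod 1.5.0), in a fit of group means over 17 libraries. All tests were two-sided, p-values were adjusted by Benjamini-Hochberg over 15432 genes, and the threshold was 0.05. On simulated data the fit recovered 86% of genes changed by 1 and 97% of those changed by 2 on the log2 scale. Alternatives were other pseudocounts, filters and scalings, library weights, a minimum fold change, edgeR 4.0.16 and DESeq2 1.42.0 on the recovered reads, and leaving out each WT, WT_star and KO library. KO_star libraries were not left out. Of the gene identifiers, 26963 matched GENCODE M21, 24354 with the version.

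The rule for named genes took the 12 largest changes each way at a mean of at least 100, up to 4 called members per list, up to 5 per run, 6 genes of wide WT_star spread and 5 from the difference of contrasts. 2610507I01Rik, Lipo3, Ankrd22, Maff, Helz2, Bend7, Wdr72, the clock, acute phase and H2 genes and other uncalled genes were named after their values were seen. Members, lists and tests were chosen with earlier results of these data known.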

Additional observations from a re-analysis of the deposited data

Results flagged for a closer look

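Among 130 groups of 4 values, 6 had a library far from the rest of its group, where chance alone gives about 1 in 20 groups. The number is near that share and is no result about these genes. Gm13394 and Gm45910 were also named for their wide WT_star spread, which favours such a library. In WT_star these were Gm13394 in library 33 (5.881), Gm45910 in library 21 (4.832), Loxl4 in library 21 (196.2), Neb in library 33 (2546) and Sfxn2 in library 21 (892). In WT it was Rps18-ps6 in library 27 (733.9).

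For 27 of the 65 named genes the change from WT to WT_star differed from the change from KO to KO_star. The first adds KO forebears and the second WT forebears. The limma test was of (WT_star minus WT) less (KO_star minus KO), in log2 units, and called 1.33% of all genes tested. Of the named genes, 56 were called between WT_star and WT, whose values enter this difference. Atp6v0c-ps2, Rnps1-ps, Rps2-ps10, Them7 and 2610507I01Rik were among those named by the p of this very test. The 27 are therefore no independent evidence. The difference was positive for Cyp17a1 (4.97), Them7 (4.73), Capn3 (4.68), 2610507I01Rik (4.67), AI506816 (3.14), Eif3j1 (1.57), As3mt (1.52), Spsb4 (1.49) and Kdm2b (1.36). It was also positive for Guk1 (1.20), Ift81 (1.12), Cdk20 (1.11), Cyp2c68 (1.09), Ehd4 (0.76), Irf9 (0.76), Acad10 (0.75), Ndufaf1 (0.69) and Habp4 (0.61). It was negative for Gm45910 (−10.05), Rps2-ps10 (−5.10), Rnps1-ps (−4.79), Atp6v0c-ps2 (−4.58), Arhgef10 (−2.47), Fut10 (−2.45), Tpmt (−1.85), Slc38a2 (−1.71) and P2rx4 (−1.0).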

How the results depend on the processing

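No paired analysis was possible because no replicate number occurs in more than 1 group. Of 1174 pairs of a called named gene and an alternative setting, 855 kept the call and 319 lost it, 213 of these with a library left out, and none changed sign. Cyp17a1, Capn3, Them7 and 2610507I01Rik kept their calls in every setting in which they were tested. Apart from fits without 1 library, this was 12 settings for Capn3 and 13 for the others. Capn3 and 2610507I01Rik had passed the filter through WT_star alone, so their kept calls are no separate support. The 145 changed genes became 839 with library weights, 4 with a minimum log2 fold change of 1 and 603 by DESeq2, and 31 to 182 without 1 library. A fit on only the 8 WT and WT_star libraries called 99 genes, and 60 of these were among the 145. The other calls of the 145 were thus not made without the spread of the KO and KO_star libraries. The 86 higher genes became 431 with weights, 57 with only the 8 libraries, 4 with the minimum, 314 by DESeq2 and 24 to 111 without 1 library. The 59 lower became 38 with equal totals, 408 with weights, 0 with the minimum in limma (2353 genes in either direction at an unadjusted p under 0.05 without it), 39 by edgeR, 289 by DESeq2 and 6 to 82 without 1 library. The 220 genes of KO_star against KO became 365 with equal totals, 871 with weights, 829 by DESeq2 and 37 to 67 without 1 KO library, and the 206 of the difference became 889 with weights, 690 by DESeq2 and 74 to 497 without 1 library. By edgeR 78 genes were higher and 39 lower, 66.7% higher. The cause of these shifts was not tested. Changes under 1 on the log2 scale were not simulated, so recovery at those sizes is not known here.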
